A study of Saccharomyces cerevisiae BY4743 with 24 samples.

Results

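In heat-shocked yeast, mRNAs of the heat and general stress response, of glycolysis and of parts of the respiratory chain stood higher, relative to the median mRNA, in the heaviest polysome pool than in the monosome pool of the same gradient, while many mRNAs with very short reading frames and several of mitochondrial ribosomal proteins stood lower. The comparison takes 6 of the 24 libraries of the series: pool 4 and pool 1 of 3 gradients at 42 °C, chosen by temperature and pool label and paired by replicate number. All cells were Saccharomyces cerevisiae BY4743, a laboratory diploid, grown at 30 °C in synthetic complete medium with 2% raffinose and a trace of glucose to mid-log phase. The heated cells were collected on a filter, put into medium at 42 °C and sampled after 30 min. The unheated cells, which serve below only to place the values, were sampled directly, so heat and filtration cannot be told apart between them. Every culture met cycloheximide, an inhibitor of elongation, at harvest, every lysate ran through a 10 to 50% sucrose gradient collected in 25 fractions, and every pool received spike-in RNA. No rRNA was depleted. Library names call pools 1, 2 and 3 mono, di and tri, and pool 4 carries only its number, so "heavy polysomes" is the reading given to it here by its place in that order.

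A polysome gradient sorts mRNAs by the number of ribosomes they carry, because each ribosome adds mass and carries the mRNA deeper into the sucrose. Ribosomes that hold no mRNA can sediment with the monosomes, so the monosome pool may contain both idle ribosomes and mRNAs with a single ribosome. A short reading frame has room for few ribosomes, and its mRNA rarely reaches the heavy pools however actively it is translated. In yeast at high temperature, Hsf1 and Msn2/4 drive the transcription of chaperone and stress genes while ribosomal protein genes are shut off. The series title asks about silent ribosomes and mRNA turnover, which the contrast of heavy against light fractions addresses within heated cells.

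Values below are scaled TPM: the deposited TPM (transcripts per 1000000), taken over the nuclear mRNA entries of a library and then multiplied by 1 factor per library so that the median tested gene is the same in all 6. They show where an mRNA lies relative to other mRNAs, not how much of it each pool holds. Of 5959 mRNA entries, 2903 reached a mean of 10 mRNA TPM and were tested. TPM keeps no read depth, so the depth is unknown, and the precision was read from the 3 gradients: the median SD of a gene's log2 value was 0.54 in pool 1 and 0.44 in pool 4, against 0.35 and 0.32 in unheated cells. Between 1057 and 1415 mRNAs were listed at 0 in the pool 1 libraries and between 1087 and 1158 in those of pool 4. Nothing in the labels says that the 3 replicates were separate cultures, so p-values measure the spread between these samples, which may be technical. URA3, deleted in BY4743, was listed at 0 in all 24 libraries, and of the mating pheromone mRNAs, which an a/alpha diploid does not express, MFA1, MF(ALPHA)1 and MF(ALPHA)2 were listed at 0 in all 6, while MFA2 reached 1294 mRNA TPM in 1 library and was at 0 in 5. Of the other haploid-specific genes examined, RME1 (7.62 to 82.6 mRNA TPM) and STE4 (1.54 to 20.9) were above 0 in all 6. HIS3 and LEU2, which the strain lacks in whole or part, reached 173 and 74.2 mRNA TPM.

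Much less mRNA accompanied the rRNA in the monosome pool than in the heavy pool. Per 1000 TPM of rRNA, the mRNAs together held 1.43, 2.49 and 4.04 TPM in pool 1 of gradients 1, 2 and 3, and 24.9, 22.8 and 22.8 in pool 4. The pools did not overlap, and the ratio of pool 4 to pool 1 was 17.5, 9.16 and 5.64 in the 3 gradients. The mean log2 difference was 3.27 (SD of the differences 0.82, n = 3 gradients). The exact 2-sided sign-flip test over the pairs gave p = 0.25 and the exact permutation of 3 against 3 libraries gave p = 0.1, each the smallest value that the design allows. Pools 2 and 3 lay between 12.9 and 28.3 TPM per 1000.

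The spread between gradients in pool 1 went with 5S rRNA, the smallest rRNA of the large subunit. It made up 77.5, 65.0 and 42.3% of the rRNA TPM in pool 1 and 10.8, 12.4 and 17.1% in pool 4, and between 18 and 32.1% in pool 1 of unheated cells. Against 25S rRNA alone, the long rRNA of the large subunit, mRNA stood at 14.7, 16.1 and 14.9 per 1000 TPM in pool 1 and at 54.1, 53.4 and 55.5 in pool 4, a log2 difference of 1.84 (SD 0.09). The difference was smaller against 25S rRNA than against all rRNA, and the 3 gradients lay closer together. What part 5S rRNA has in the result was not tested. The ratio of 25S to 18S rRNA lay between 1.28 and 1.38 in all 6 libraries.

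**Figure D1:**
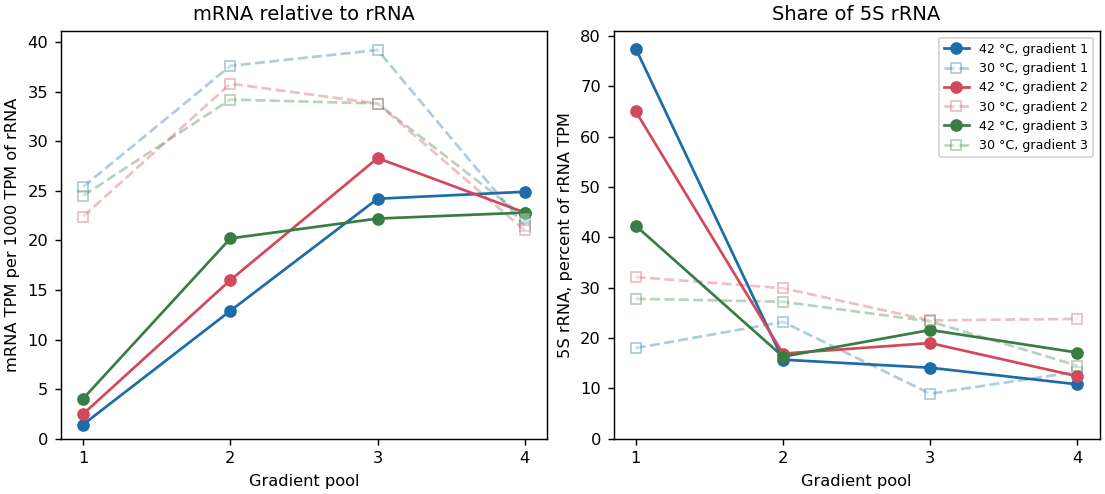
mRNA TPM per 1000 TPM of rRNA (left) and 5S rRNA as a percent of rRNA TPM (right) in gradient pools 1 to 4, with 1 line per gradient, filled points at 42 °C and open points at 30 °C. Pool 1 at 42 °C lies at 1.43 to 4.04 mRNA TPM per 1000 and at 42.3 to 77.5% 5S rRNA, apart from the other pools in both panels.

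The most abundant mRNAs as a set took a larger share of the mRNA in heavy polysomes. The 30 most abundant mRNAs of the 6 libraries took 44, 49.7 and 39.1% of the mRNA in pool 1 and 61.7, 62.8 and 57.6% in pool 4. These 30 were picked by their mean over the same 6 libraries, so the difference in their share may be partly built in. A split by heat response used only pools 2 and 3, and so none of the 6 libraries compared. The 370 tested genes that were at least 4-fold higher at 42 °C than at 30 °C held 50.0, 52.0 and 47.8% of the mRNA in pool 1 and 67.7, 71.0 and 65.0% in pool 4. The 1349 genes within 2-fold of their unheated level went the other way, with 23.1, 23.6 and 23.6% in pool 1 and 13.9, 11.6 and 15% in pool 4. For the 341 genes at least 4-fold lower after heat the shares were 7.07, 3.98 and 6.46% in pool 1 and 2.15, 1.01 and 2.0% in pool 4. In each of these classes the pools did not overlap (exact permutation p = 0.1, the smallest possible for 3 against 3 libraries). At 30 °C the heat-raised class also held more of pool 4, with 3.01, 2.51 and 2.37% in pool 1 and 5.08, 5.35 and 5.11% in pool 4. The heat-lowered class also held less there, with means of 67.3% in pool 1 and 49.9% in pool 4. Genes within 2-fold held more of pool 4 at 30 °C, with means of 13.4 and 18.6%. The temperature difference of these shares was not tested. Shares of a whole depend on each other and on a few abundant mRNAs. Counted by gene, 26.5% of the heat-raised genes had all pool 4 values above all pool 1 values, against 21.5% of the genes within 2-fold, 12.3% of the heat-lowered genes and 20.6% of all tested genes. All pool 4 values lay below in 11.6, 10.0 and 7.04% of these classes and in 9.68% of all tested genes, and the median log2 differences were 0.37, 0.18 and 0.29. The heat-lowered genes thus had the smallest share of genes without overlap in either direction, and their median lay above that of the genes within 2-fold. By gradient, however, their medians were 0.05, 0.0 and 0.3, against 0.11, 0.21 and 0.15 for the genes within 2-fold. Of the 341 heat-lowered genes, 153 were listed at 0 in at least 1 of the 6 libraries, against 150 of the 1349 within 2-fold and 41 of the 370 heat-raised. What part these zeros have in the shares and medians was not tested.

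Gene by gene, 6 of 2903 mRNAs (0.207%) passed the paired test at 5% (limma with the gradient as a block, Benjamini-Hochberg adjustment), 2 higher in pool 4 (0.0689%) and 4 lower (0.138%). At an unadjusted p under 0.05 there were 711 genes (24.5%). RTC3, a stress-induced gene on chromosome VIII (280820 to 281155, build R64) whose protein resembles part of the human SBDS ribosome-maturation factor, was the 1 call with a level above 0 in every library. It stood at 5423, 9964 and 4016 scaled TPM in pool 1 and at 44948, 73179 and 30379 in pool 4. Every gradient showed a rise and the pools were far apart, with a log2 difference of 2.95 ± 0.15 (SE, n = 3 pairs; limma adjusted p = 0.0198). The level was graded over the gradient, at 12526, 24315 and 8554 in pool 2 and 19250, 42442 and 21601 in pool 3. In unheated cells the same contrast stood at 0.15 ± 0.51 (limma adjusted p = 0.874).

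The other 5 calls each had a pool in which all 3 libraries were listed at 0, so no fold is given for them. RUB1, which encodes a ubiquitin-like modifier of cullins (chromosome IV, 733618 to 733924), stood at 1879, 2583 and 888 in pool 1 and at 0 in pool 4 (limma adjusted p = 0.00681). It was present in pools 2 and 3, at 559 to 1320, so it was missing from the list of the heaviest pool alone. YOL038C-A, a reading frame of 31 residues, stood at 6378, 2410 and 4142 in pool 1 and YLR146W-A, of 62 residues, at 342, 516 and 355, and both were listed at 0 in pool 4 (limma adjusted p = 0.00681 for each). MAK31, a subunit of the NatC N-terminal acetyltransferase with 88 residues, stood at 88.6, 268 and 184 in pool 1 and at 0 in pool 4 (limma adjusted p = 0.041). MRA1, named MIN8 in the deposited table, ran the other way, at 0 in all pool 1 libraries and at 314, 160 and 461 in pool 4 (limma adjusted p = 0.0198). All of these 5 are short genes, with spans of 96 to 362 nt. A pool at 0 throughout adds no spread, so these adjusted p-values rest largely on the spread of the other pool and may be too small. The SE was 0.36 for YOL038C-A, 0.32 for YLR146W-A and 0.495 for MAK31. It was 2.095, 1.604 and 1.524 in a fit of all 12 libraries at 42 °C, described below. For RUB1 and MRA1 it was 0.396 and 0.441, against 0.364 and 0.557 in that fit.

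The test over 6 libraries has 2 residual degrees of freedom. In all 81 genes, the 6 calls included, lay at an adjusted p under 0.08, 50 higher and 31 lower. Groups of genes are therefore described by a second fit, which took the spread from all 12 libraries at 42 °C with the gradient as a block. It called 364 genes higher in pool 4 (12.5%) and 144 lower (4.96%), all 6 above among them, and is named the 12-library fit below. Counts of gene lists below are to be read beside these shares of all tested genes. By an earlier analysis of these data, pool 1 at 42 °C was noisier than the other pools. The shared spread may therefore understate that of pool 1, and adjusted p-values of the 12-library fit may be too small. Without gradient 1, 2 or 3 this fit called 191, 54 and 65 genes higher and 73, 34 and 29 lower. All 3 pool 4 values lay above all 3 pool 1 values in 598 genes (20.6%) and below them in 281 (9.68%), and all 3 gradients moved the same way in 957 and 493 genes. The median tested gene stood at 0.22 with this scaling, at 0.20 with quantile normalization and at −0.37 when mRNA TPM was not centred, so small positive differences change sign on the uncentred scale. On TPM as deposited, where rRNA is part of the whole, 2221 genes were higher in pool 4 and 20 lower, so that lower below means lower than the other mRNAs.

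Most stress-response mRNAs lay on the heavy side. Of 45 tested general stress genes, 30 passed higher and 2 lower in the 12-library fit (9 to 25 higher and 0 to 1 lower without 1 gradient), 27 lay apart with pool 4 above, and the median log2 difference was 1.12, or 0.50 uncentred. HSP12, a membrane-associated stress protein and the most abundant mRNA of the list, stood at 57134, 57803 and 28671 in pool 1 and at 130296, 166803 and 120930 in pool 4. The pools did not overlap (log2 1.60 ± 0.23 SE; limma adjusted p = 0.0787, and 0.00372 in the 12-library fit), but quantile normalization, which gives each library the same highest values, put it at −0.09. TMA10, whose protein associates with ribosomes and which has a paralog in STF2, stood at 6279, 14161 and 6109 in pool 1 and 23071, 37346 and 17051 in pool 4. UBI4, the polyubiquitin gene, stood at 1732, 1380 and 1138 against 3117, 4944 and 3534. The 2 members lower in pool 4 were both very small proteins. HOR7 stood at 19533, 25309 and 14082 in pool 1 and 6900, 3808 and 1691 in pool 4, with no overlap (log2 −2.43 ± 0.36 SE; limma adjusted p = 0.0787, and 0.00609 in the 12-library fit). DDR2 stood at 15034, 19111 and 9230 against 7393, 9289 and 7006, where the highest pool 4 value lay just above the lowest of pool 1.

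Cytosolic chaperones under Hsf1 control followed with 18 of 29 higher and 0 lower in the 12-library fit in limma (2 lower at an unadjusted p under 0.05), 17 apart above and 2 apart below, and a median of 0.82, or 0.20 uncentred. Without 1 gradient the count of higher genes ran from 2 to 19. HSP26, a small heat shock protein that holds unfolded proteins, stood at 16476, 25453 and 13851 in pool 1 and at 50057, 123777 and 76366 in pool 4 (log2 2.12 ± 0.23 SE; limma adjusted p = 0.0787, and 0.000655 in the 12-library fit). The Hsp90 co-chaperone mRNAs SBA1 (log2 2.00) and STI1 (1.27) passed in the same fit, as did those of Hsp90 itself, HSP82 (1.13) and HSC82 (1.05), and the Hsp70 mRNA SSA4 (1.45). Reads of HSP82 and HSC82, and of SSA1 to SSA4, are split between close paralogs by the quantification, so their single values are uncertain. HSP104, the disaggregase, did not pass: it stood at 5888, 8253 and 5489 in pool 1 and 6151, 14859 and 10372 in pool 4, overlapping, with a log2 difference of 0.61 ± 0.24, or −0.01 uncentred (limma adjusted p = 0.222, and 0.0589 in the 12-library fit). BTN2, which sorts aggregated proteins, stood at 1446, 4089 and 3315 against 1678, 5758 and 2865, and the pools overlapped. The difference between these genes and HSP26 was not tested.

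**Figure D2:**
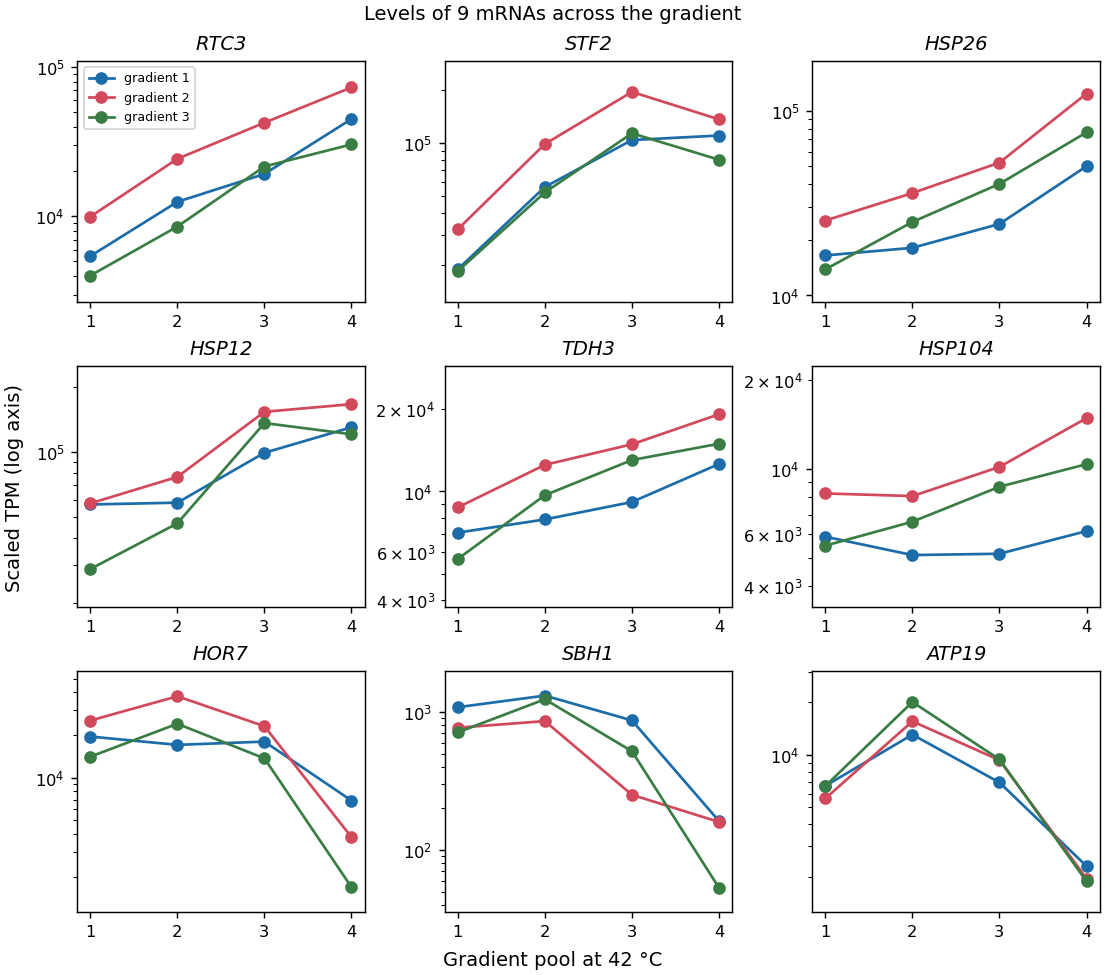
Scaled TPM (log axis, a separate range in each panel) of 9 mRNAs in pools 1 to 4 at 42 °C, with 1 line per gradient. RTC3 climbs from 4016 to 9964 in pool 1 to 30379 to 73179 in pool 4 in every gradient, while HOR7, SBH1 and ATP19 are at their lowest in pool 4.

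In energy metabolism, glycolytic mRNAs lay on the heavy side, and the respiratory chain held members on both sides. Of 22 tested genes of glycolysis and fermentation, 19 passed higher and 0 lower in the 12-library fit in limma (20 and 0 at an unadjusted p under 0.05), with a median of 0.98, or 0.38 uncentred, but 0 passed higher without gradient 2 or gradient 3 (16 without gradient 1). TDH3, glyceraldehyde-3-phosphate dehydrogenase, stood at 7070, 8747 and 5663 in pool 1 and 12613, 19180 and 14963 in pool 4 (log2 1.12 ± 0.19 SE; limma adjusted p = 0.0855, and 0.00348 in the 12-library fit). The pools did not overlap for TDH3, PGK1 (log2 0.94) or ENO2 (1.05), and overlapped for ADH1 (1.01).

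In the respiratory chain 15 of 41 genes passed higher and 2 lower in the 12-library fit (4 to 9 higher and 0 to 1 lower without 1 gradient), with 20 apart above and 3 apart below and a median of 1.00, or 0.38 uncentred. STF2, which acts on the ATP synthase inhibitor, stood at 19021, 32195 and 18578 in pool 1 and 110477, 136620 and 80364 in pool 4 (log2 2.25 ± 0.17 SE; limma adjusted p = 0.0631, and 0.000146 in the 12-library fit). The inhibitor partner STF1 (log2 2.01) and the cytochrome bc1 subunit QCR6 (2.29) lay apart in the same direction. ATP19, a small subunit of the ATP synthase, did the reverse, at 6644, 5624 and 6627 in pool 1 and 2300, 1953 and 1879 in pool 4. Pool 2 was higher than both in every gradient, at 13078, 15592 and 20127 (log2 of pool 4 over pool 1 −1.62 ± 0.17 SE; limma adjusted p = 0.0787, and 0.00164 in the 12-library fit). SDH6, an assembly factor of succinate dehydrogenase with 79 residues, stood at 4186, 4067 and 2174 against 539, 659 and 740. In the TCA cycle, whose median was 0.55 here and −0.06 uncentred, 5 of 13 passed higher (2 without gradient 1 and 0 without gradient 2 or gradient 3), with the malate dehydrogenase MDH1 at 0.96.

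Few ribosomal protein mRNAs passed in either direction. Of 102 tested cytoplasmic ribosomal protein mRNAs, 4 passed higher and 4 lower in the 12-library fit, beside 12.5 and 4.96% of all genes, and without gradient 3 none passed (0 to 2 higher and 0 to 3 lower without 1 gradient). Of the 102, 58 were listed at 0 in at least 1 of the 6 libraries, and the median was 0.39, or −0.17 uncentred. The family took 2.355 to 5.22% of the mRNA in pool 1 and 0.441 to 1.223% in pool 4, so the pools did not overlap in this share. RPS30A, the most abundant of those with no library at 0, stood at 5648, 6308 and 5591 in pool 1 and 2587, 1318 and 845 in pool 4 (log2 −2.04). Most members have a near-identical paralog, so single values are uncertain. Elongation and termination factors had 4 of 12 higher and 0 lower in limma (1 lower at an unadjusted p under 0.05, and 2 to 4 higher without 1 gradient), with HYP2 (eIF5A, log2 1.84), TEF2 (eEF1A, 1.51, with a paralog of identical protein in TEF1) and EFB1 (1.27). TEF1, the more abundant of the pair, stood at 1425, 1016 and 759 in pool 1 and 1388, 2063 and 1624 in pool 4. Its pools overlapped and it did not pass (log2 0.69, limma adjusted p = 0.15 in the 12-library fit). Initiation factors had 0 of 22 higher in limma (2 at an unadjusted p under 0.05) and 1 lower, SUI1 (eIF1, log2 −0.72, apart in pool 4 below pool 1), which did not pass without any 1 gradient, and a median of 0.31, or −0.28 uncentred.

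Mitochondrial ribosomal proteins were the list with the lowest median, −0.45, or −0.99 uncentred, below 0 in each gradient (−0.28, −0.38 and −0.57). Of 62 tested, 3 passed higher and 5 lower in the 12-library fit (0 to 1 higher and 2 to 4 lower without 1 gradient), and 9 lay apart below against 5 above, beside 9.68 and 20.6% of all genes. MRPL39, a large-subunit protein of 70 residues, stood at 3827, 2531 and 1740 in pool 1 and 172, 527 and 338 in pool 4 (log2 −3.03 ± 0.53 SE; limma adjusted p = 0.089, and 0.0024 in the 12-library fit). MRPL33, of 86 residues, stood at 1196, 753 and 621 against 287, 73.2 and 211, and MRPL51, of 140 residues, at 277, 272 and 373 against 59.8, 61.0 and 97.8. In pool 4, CMI7, of near-equal span to MRPL39, stood at 172, 176 and 169, which may be the lowest level that the listing can show. The pool 4 values of MRPL39 and MRPL33 may lie near the lowest level for their span, so the SE may not measure the spread between gradients. Both are also among the genes of up to 100 residues, whose median was −0.98. What part level and length have here was not tested. MRP8, whose place in this family is uncertain, stood in the other direction at 486, 418 and 248 against 948, 1134 and 835.

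**Figure D3:**
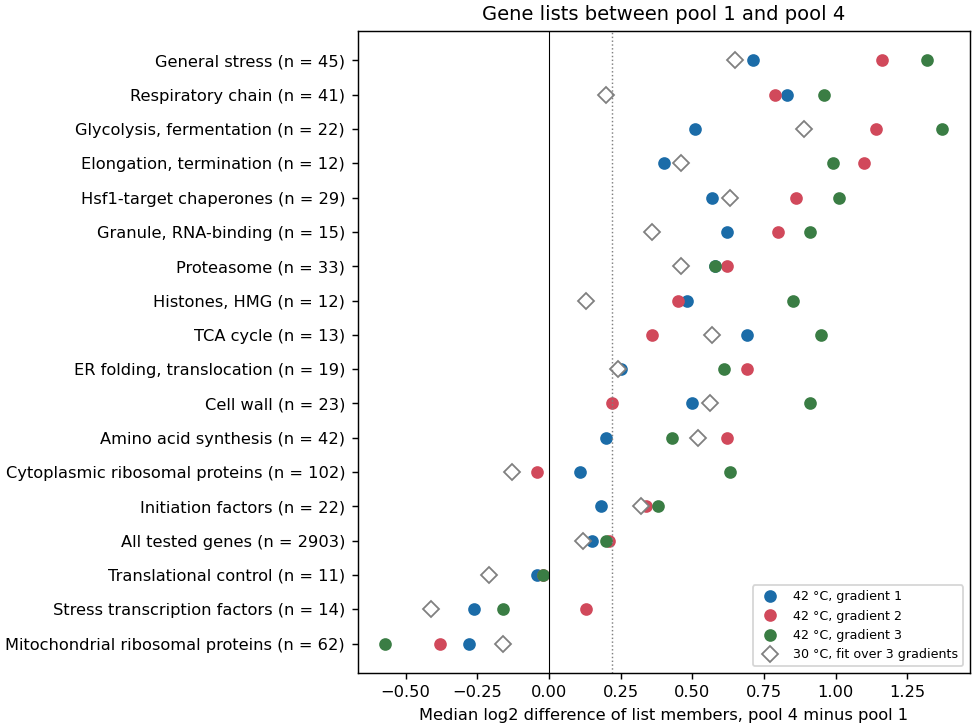
Median log2 difference of pool 4 minus pool 1 over the tested members of each gene list, as filled points for the 3 gradients at 42 °C and an open diamond for 30 °C; the dotted line is the median of all tested genes at 42 °C (0.22). General stress genes lie at 0.71, 1.16 and 1.32 and mitochondrial ribosomal proteins at −0.28, −0.38 and −0.57 in gradients 1, 2 and 3.

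Protein turnover and other groups lay between these. Proteasome subunits had 13 of 33 higher and 0 lower in the 12-library fit in limma (0 lower at an unadjusted p under 0.05, and 1 to 4 higher without 1 gradient). Of the 33, 19 lay apart above and 2 apart below, and the median was 0.63, or 0.02 uncentred. PUP2 stood at 688, 537 and 606 in pool 1 and 1438, 1364 and 1400 in pool 4, while RPN4, the transcription factor of these genes, stood at 203, 237 and 161 against 170, 302 and 199, with overlap. Histones and HMG proteins had 4 of 12 higher (1 to 2 without 1 gradient), with the chromatin protein NHP6B at 2814, 1914 and 1852 against 8557, 9511 and 8223. The messenger RNA-binding protein list had 5 of 15 higher (1 without any 1 gradient), with SBP1 at 296, 354 and 285 against 827, 840 and 757, and the decapping activator EDC2, from the decay list, stood at 420, 327 and 476 against 1147, 1767 and 1493. The endoplasmic reticulum list had 2 of 19 higher and 1 lower, beside 12.5 and 4.96% of all tested genes (0 to 1 of each without 1 gradient). The lower gene was SBH1, a small subunit of the translocon, at 1084, 770 and 712 against 162, 160 and 53.2 (log2 −2.90 ± 0.35 SE; limma adjusted p = 0.0787, and 0.00459 in the 12-library fit). The ER Hsp70 KAR2 stood at 617, 643 and 447 against 661, 1150 and 926 and did not pass.

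Of 14 stress transcription factor genes, 0 passed in either direction in the 12-library fit (limma, with 0 higher and 1 lower at an unadjusted p under 0.05), and their median was 0.01. HAC1 stood at 81.3, 78.7 and 65.2 in pool 1 and 60.5, 152 and 67.8 in pool 4. GCN4, whose upstream reading frames repress it in fed cells, stood at 6.08, 32.5 and 37.0 in pool 1 and at 5.9, 4.32 and 7.18 in pool 4, with 1 gradient level and the others lower in pool 4 (log2 −1.64 ± 0.69 SE; limma adjusted p = 0.239). CPA1, which has an arginine-sensing upstream frame, stood at 72.7, 84.7 and 171 against 59.6, 41.4 and 90.2 (limma adjusted p = 0.204). ATG41 was the member of the translational control list that passed higher in the 12-library fit, at 341, 1123 and 507 in pool 1 and 983, 4066 and 1568 in pool 4, where the log2 difference was 1.52, 1.86 and 1.63 in the 3 gradients. The ribosome-binding factors LSO1 and LSO2 stood at log2 −0.10 and 0.08, and both signs change with the scaling. STM1, another such factor, stood at 23.2, 10.7 and 33.0 in pool 1 and at 56.0, 42.2 and 62.8 in pool 4, without overlap (log2 1.34 ± 0.32 SE; limma adjusted p = 0.117, and 0.0324 in the 12-library fit). It was the 1 call among these 3 factors, and 0 passed without any 1 gradient.

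Coding length set apart the shortest mRNAs. Lengths in residues came from the gene span of the 2797 tested genes (96.3%) whose span is a multiple of 3. The 171 genes of up to 100 residues had a median log2 difference of −0.98. Of them 10 lay apart above (5.85%) and 50 apart below (29.2%), beside 20.6 and 9.68% of all tested genes. The medians of the longer bins ran from 0.12 in the bin up to 200 residues to 0.29 in the bin up to 400 and in that over 800. Of the shortest genes, 54.4% were listed at 0 in at least 1 library, against 3.0% of the longest, and the per-gradient medians were −0.47, −1.03 and −0.58. Spearman's rho of length with the pool difference across genes, which are not independent replicates, was 0.06, 0.14 and 0.11 in the 3 gradients, and 0.00, 0.06 and 0.04 without genes of up to 100 residues. In unheated cells the shortest genes had a median of −2.17 and rho was 0.21, 0.27 and 0.26. The temperature difference of these medians and correlations was not tested.

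CMI7, of 69 residues, shows the short-frame pattern with high values in pool 1: it stood at 8132, 7231 and 2485 in pool 1 and at 172, 176 and 169 in pool 4 (log2 −4.92 ± 0.41 SE; limma adjusted p = 0.0631, and 0.00069 in the 12-library fit). Its pool 4 values were nearly equal (SD 3.32), and MRPL39, with a span of 213 nt against 210 nt, had the same 172 in gradient 1. These values may lie at the lowest level that the listing can show, so the small SE may not measure the spread between gradients. This was not tested. CMI7 stood at 5373, 2300 and 4436 in pool 2 and 1839, 1526 and 2348 in pool 3, so that it declined from pool to pool in gradients 1 and 2 and was highest in pool 2 in gradient 3. Some short frames did the opposite, with 10 genes of up to 100 residues apart above against 50 apart below. Among those above were STF2 (84 residues), STF1 (86), TMA10 (86) and NHP6B (99), whose values are given earlier. COX12 (83 residues, a subunit of cytochrome c oxidase) stood at 72.5, 49.0 and 67.4 against 191, 135 and 186, and QCR10 (98 residues) at 199, 437 and 237 against 602, 701 and 462. YBR085C-A, a short frame among the most abundant mRNAs, stood at 28810, 39113 and 22478 in pool 1 and 61078, 77248 and 61415 in pool 4 (log2 1.17, but −0.34 with quantile normalization). Length alone did not order the longer mRNAs either: TAD2, the catalytic partner in tRNA adenosine deamination with 250 residues, stood at 648, 504 and 455 against 82.5, 98.0 and 74.1, and the transcription elongation factor ELF1, with 145 residues, at 382, 500 and 304 against 45.9, 84.1 and 45.0. TPM1, a tropomyosin of 199 residues, stood at 474, 469 and 416 against 1642, 2094 and 1866. SOD1, the copper-zinc superoxide dismutase of 154 residues, stood at 1209, 1032 and 617 against 3409, 3966 and 3057.

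**Figure D4:**
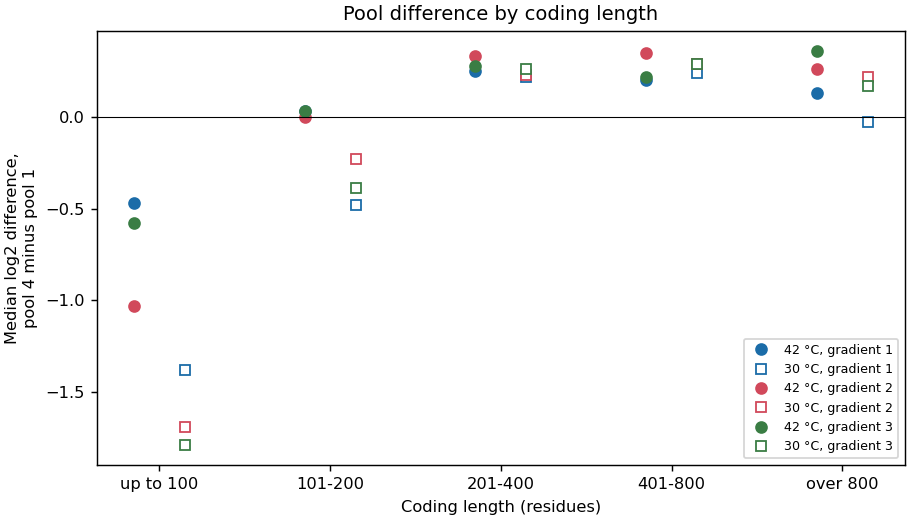
Median log2 difference of pool 4 minus pool 1 in bins of coding length, with filled circles for the 3 gradients at 42 °C and open squares for those at 30 °C. The bin of up to 100 residues lies at −0.47, −1.03 and −0.58 at 42 °C and lower at 30 °C, and bins over 200 residues lie near each other.

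The same contrast in unheated cells shared much of the order. There 214 of 3107 genes were higher in pool 4 (6.89%) and 219 lower (7.05%) at 5% in limma. Across the 2341 genes tested at both temperatures, which are not independent replicates and share the scaling and the gene length, Pearson's r of the differences was 0.55 and Spearman's rho 0.51. At 30 °C all pool 4 values lay above all pool 1 values in 652 genes (21%) and below them in 436 (14%). The same direction without overlap held at both temperatures for 275 genes above and 118 below, and the direction was opposite in 14 and 8. IPP1, the cytosolic pyrophosphatase, is an example of the first kind, at 120, 51.1 and 84.4 in pool 1 and 354, 277 and 252 in pool 4 at 42 °C (log2 1.85), with 1.74 at 30 °C.

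A test of the temperature difference itself passed 5% in 4 of 3257 genes (limma with gradients as blocks), 2 toward pool 4 and 2 toward pool 1 at 42 °C (0.0614% each), and 354 had an unadjusted p under 0.05 (10.9%). All 4 had a pool listed at 0 in every gradient at 42 °C, so no fold is given. Such a pool adds no spread to the test, so the adjusted p-values of these 4 genes may be too small. MRA1 was at 0 in pool 1 and 171 to 498 in pool 4 at 42 °C, but at 2534 to 4241 in pool 1 and 1162 to 1376 in pool 4 at 30 °C, on the scale of the 12 libraries of that test (limma adjusted p = 0.00189). RUB1 stood at 830 to 1222 in pool 1 and 161 to 203 in pool 4 at 30 °C, where it was lower in pool 4 but not at 0 (limma adjusted p = 0.00278). RPB8, a shared subunit of the nuclear RNA polymerases, was at 0 in pool 1 and 9.6 to 9.8 in pool 4 at 42 °C and higher in pool 1 than pool 4 at 30 °C (limma adjusted p = 0.0288). The near-equal pool 4 values of RPB8 at 42 °C may lie at the lowest level that the listing can show. BNS1 was at 15.3 to 22.5 in pool 1 and 0 in pool 4 at 42 °C, with overlapping values at 30 °C (limma adjusted p = 0.0344). The stress genes named above, RTC3, STF2, HSP26 and HSP12, did not pass this test (limma adjusted p = 0.291, 0.121, 0.117 and 0.419), so a larger shift after heat was not shown for them.

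**Figure D5:**
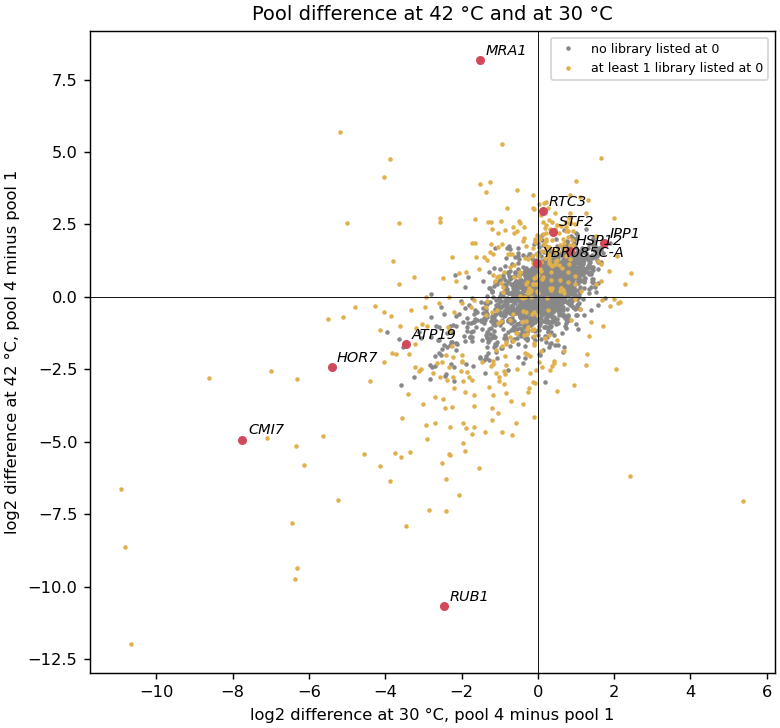
Log2 difference of pool 4 minus pool 1 at 42 °C (vertical) against that at 30 °C (horizontal) for the 2341 genes tested at both temperatures, with genes listed at 0 in at least 1 of the 12 libraries in yellow and named genes in red. The differences at the 2 temperatures are positively related across genes (Pearson's r 0.55), with a wide scatter.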

How the data were processed

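The submitters' processing notes name Trim Galore 0.6.5, Salmon 1.9.0 and build R64, with settings not given in the sources. The authors deposited TPM, per the file headers, for 6087 entries, and no depth can be recovered from it. All 6082 gene IDs matched the R64 reference table, which gave symbols (2 had become dates) and coordinates. TPM of the 5959 mRNA entries was rescaled to 1000000, each library was scaled to a common median over the tested genes (10 mRNA TPM or more on average), and log2 of the value plus 1 was fitted in limma 3.58.1 (R 4.3.3) with a mean-variance trend, replicate number as a block and 2-sided Benjamini-Hochberg adjustment at 5%. Replicate numbers were taken to mark a shared gradient. Deviations of pool 1 and pool 4 from their group means correlated weakly, at 0.13, 0.1 and 0.12 for the same number and −0.1 to −0.01 for different numbers. Such deviations sum to 0 in each gene, so the negative values are partly built in and these correlations say little about the pairing. The fit was tested on simulated data. Tables were prepared in Python 3.11.15.

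Genes named are the calls, then the largest non-overlapping differences averaging 50 mRNA TPM or more, the abundant members of each list, a fixed set and the 30 most abundant mRNAs. SBA1, STF1, SOD1, TPM1, TAD2, ELF1, MRPL51, CMI7, SDH6, COX12 and QCR10 were named after their values were seen. The comparison, its lists and rules were chosen with earlier results of these data known. Alternatives covered the pseudocount, filter, scaling, trend, block, gradients and libraries fitted. No sequences are shown.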

Additional observations from a re-analysis of the deposited data

Results flagged for a closer look

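In 4 genes the pool difference itself differed between 42 and 30 °C in limma: MRA1 (adjusted p = 0.00189), RUB1 (0.00278), RPB8 (0.0288) and BNS1 (0.0344), each with a pool listed at 0 in all 3 gradients at 42 °C. ATG41 moved toward pool 4 in all 3 gradients at 42 °C (log2 1.67) and toward pool 1 in all 3 at 30 °C (log2 −1.12), and its test of the temperature difference gave an adjusted p of 0.105 in limma.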

How the results depend on the processing

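The 2 higher and 4 lower calls at 42 °C became 0 higher with a pseudocount of 0.1 (469 at an unadjusted p under 0.05 in limma), 79 and 43 with a filter of 50 mRNA TPM, 1 higher with quantile normalization, 15 lower without centring, 1 and 8 without the trend, 364 and 144 with 12 libraries and 547 and 249 with 24. Without the replicate block, which holds the pairing by gradient, they were 15 and 19. Without 1 gradient they ran from 0 to 3 higher and 5 to 11 lower, and in the 12-library fit from 54 to 191 and 29 to 73. TPM as deposited gave 2221 and 20, and 2331 and 57 with the pseudocount scaled. The scaled pseudocount and the 12-library fit without 1 gradient were added with the data seen. The calls of 214 and 219 at 30 °C became 71 and 125 without a filter, 2122 and 106 without centring, 1832 and 132 as deposited (1813 and 119 with the scaled pseudocount), 24 and 97 without the trend, 0 and 3 against a change of 1 (32 higher at an unadjusted p under 0.05), and 0 to 46 and 4 to 154 without 1 gradient. The 2 and 2 calls of the temperature difference became 1 and 1 with a pseudocount of 5, a filter of 50, quantile normalization or a change of 1, 1 lower without a filter, 8 and 1502 without centring, 633 and 300 as deposited (1 lower with the scaled pseudocount), 4 higher without the block, and 1 to 19 and 1 to 14 without 1 gradient. The log2 ratio of mRNA to rRNA was 1.84 on 25S rRNA and 2.82 without the 20 most abundant mRNAs.

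As deposited, and then with the scaled pseudocount, 11 genes lower in pool 4 turned: ATP19 (0.95, 1.00), CPA1 (0.62, 1.81), DDR2 (1.78, 1.80), GCN4 (0.01, 0.54), HOR7 (0.19, 0.19), LSO1 (2.22, 2.52), MRPL33 (0.28, 0.30), MRPL51 (0.21, 0.51), RPS30A (0.55, 0.59), SDH6 (0.22, 0.24) and SUI1 (0.81, 1.86). This scale holds the higher mRNA share of pool 4. Without centring BTN2 (−0.45), HAC1 (−0.42), HSP104 (−0.01), LSO2 (−0.54) and RPN4 (−0.48) turned, with quantile normalization HSP12 (−0.09), LSO2 (−0.05), RPN4 (−0.04) and YBR085C-A (−0.34), with a filter of 50 LSO2 (−0.08) and RPN4 (−0.02), and without a filter LSO1 (0.05). Without 1 gradient HAC1 ran from −0.18 to 0.50, LSO1 from −0.27 to 0.04 and LSO2 from −0.18 to 0.49. The cause of the other changes was not tested.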
